A study of Homo sapiens with 12 samples.

Results

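The genes described here are the nuclear genes for the subunits of respiratory complexes II, III and IV, of cytochrome c and of the ATP synthase, complex V. They were taken from the table by name: SDHA, SDHB, SDHC, SDHD, CYC1, CYCS, and every unhyphenated symbol starting with UQCR, COX4, COX5, COX6, COX7, COX8, ATP5F, ATP5M or ATP5P whose description does not call it a pseudogene. This gave 51 of the 50868 genes in the table: 4 of complex II, 10 of complex III, CYCS, 18 of complex IV and 18 of complex V. The cells were RPMI2650, a wild-type human epithelial line from a nasal septum tumour, cultured at an air-liquid interface, and the data are RNA-seq read counts from 12 libraries. The 4 PFHxA libraries come from cells given 1 µM perfluorohexanoic acid for 7 days, the 4 PFBA libraries from cells given 1 µM perfluorobutanoic acid for 7 days, and the 4 control libraries carry the treatment label Control alone, with no day or vehicle recorded. PFHxA and PFBA are fluorinated fatty acids of the same type, of which PFHxA is the longer.

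Complexes II and III, cytochrome c and complex IV pass electrons from succinate and reduced ubiquinone to oxygen. Complexes III and IV pump protons across the inner mitochondrial membrane as they do so, and the ATP synthase lets the protons flow back through its membrane ring to drive ATP formation. All 4 subunits of complex II and cytochrome c are encoded in the nucleus, while complexes III, IV and V also contain subunits encoded by mitochondrial DNA, so that their assembly joins products of both genomes. Several subunits of complex IV exist as isoforms whose genes are used in muscle, lung or testis in place of the widely used gene.

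Total counts ran from 18051645 to 20405688 in PFHxA libraries, from 18411985 to 21879105 in PFBA libraries and from 16941599 to 21508681 in control libraries, and 16554 genes had enough reads to be tested. Nothing in the labels says that the 4 libraries of a group were separate cultures, so the p-values measure the spread between these libraries, which may be technical. Of 6 epithelial markers all were detected, with sums of 2202 to 2300 CPM (read counts scaled to a common library size with TMM factors) in PFHxA, 1983 to 2122 in PFBA and 2086 to 2221 in control libraries. Markers of leukocytes, endothelium and fibroblasts summed to 30.8 to 35.7, 28.1 to 33.8 and 29.8 to 31.9 CPM in PFHxA, PFBA and control libraries, most of it PDGFRB. The secretory cell marker SCGB1A1 was at 0 in all 12 libraries, and EPCAM, of the epithelial list, was lower with PFHxA than in control (log2 fold change -0.18, adjusted p = 0.0384), a call lost without PFHxA b, c or d or control a, c or d. The other 5 epithelial markers had higher fitted levels with PFHxA than in control, none past the threshold. Between the acids, KRT7 (0.18, adjusted p = 0.0163) of the epithelial list and the airway markers TUBB4B (0.19, 0.013) and KRT5 (0.18, 0.0117) were higher with PFHxA than with PFBA; KRT7 lost its call without PFBA c or d, and none of the 3 passed with the trends over GC content and length removed. The part of these markers in the results below was not tested. One library stood apart: control d gave the 51 genes 0.876% of its reads, against 0.718% to 0.764% in the other 3 controls, and mitochondrially encoded genes 9.15%, against 10.97% to 11.94%. The main counts and medians against control are also given without it below. In bulk RNA, fewer cells of a type and less RNA per cell cannot be told apart.

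Of the 51 genes, 44 passed the filter on low counts, and the 7 others were isoforms or near copies. COX6A2 and COX7A1, the muscle forms of subunits VIa and VIIa, and the testis form COX7B2 had no read in any library. COX4I2, the oxygen-responsive form of subunit IV, had 73 reads in all 12 libraries together, the testis form COX8C had 14 and ATP5MGL, a copy of ATP5MG, had 2. COX7BP1 had 25 reads; its symbol is that of a pseudogene, but the table gives it no description, so that the rule keeps it. A further 90 rows with these name stems were described as pseudogenes and left out. They held 0.444% of the reads of the family, and only COX6A1P2, UQCRFS1P1 and ATP5F1EP2 had a mean count of at least 10.

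Per length, the widely used isoforms carried almost all of the signal. Levels were taken as CPM of all reads per kilobase of the longest annotated transcript and averaged over 12 libraries. ATP5F1B, the catalytic beta subunit of the synthase, was highest at 393 CPM per kilobase (range 342 to 441). COX6A1, the widely used form of subunit VIa of complex IV, was next at 331 (304 to 375.5); the ranges overlap, although ATP5F1B was the higher gene in each library. By library, COX6A1 had 320, 330.5, 323 and 328 CPM per kilobase with PFHxA, 304, 329, 308 and 327 with PFBA and 320.5, 351, 356 and 375.5 in control. COX8A, the small membrane subunit VIII, followed at 299 (269 to 336), ATP5F1C at 211, UQCRH, the hinge protein beside cytochrome c1, at 194 and CYCS at 157. UQCRH had 166, 164.5, 191 and 193.5 CPM per kilobase with PFHxA, 173, 169, 192.5 and 212 with PFBA and 199, 197, 218 and 254 in control, where control d was the highest library. The ranges of COX6A1 and COX8A overlap, so that their order does not hold library by library.

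Several paralogs differed widely in level. COX6B2, the testis form of subunit VIb, had 3.96, 3.63, 3.06 and 3.48 CPM per kilobase with PFHxA, 3.01, 1.85, 2.97 and 3.23 with PFBA and 2.50, 4.03, 3.43 and 2.635 in control. COX6B1 was at 155 CPM per kilobase over the 12 libraries, and no library of COX6B2 came near it. ATP5MC1, ATP5MC2 and ATP5MC3 encode the same mature c subunit of the proton-carrying ring with different import sequences, and their levels per length were 33.7, 0.886 and 55.6. The counter is not given, so how reads that match several of these paralogs were counted is unknown. ATP5MC2 had 27 to 45 reads in a library and 409 in all, against 17409 for ATP5MC1 and 71120 for ATP5MC3, the fewest of the 44. Its levels were 0.746, 0.764, 0.981 and 0.719 CPM per kilobase with PFHxA, 0.879, 0.825, 0.978 and 1.13 with PFBA and 0.824, 0.713, 1.18 and 0.896 in control, with the 3 groups overlapping. The range of COX7A2, 93.5 to 158 CPM per kilobase, lay above that of COX7A2L, 19.2 to 41.2, which encodes a factor that joins complexes III and IV in supercomplexes. UQCRH and its near-identical copy UQCRHL, at 19.9 and lowest in complex III, may share reads. UQCRHL had 20.9, 16.6, 18.9 and 18.95 CPM per kilobase with PFHxA, 19.2, 16.9, 18 and 23.15 with PFBA and 20.6, 19.5, 21.7 and 24.02 in control. Within complex II the order was SDHB (79.5), SDHA (69.6), SDHD (46.6) and SDHC (11.4). The ranges of SDHB and SDHA overlapped, as did those of SDHA and SDHD, while SDHC (9.90 to 12.5) stayed below the other 3 in every library. This place of SDHC rests on its longest transcript of 13570 bases, against 1153 for SDHB, 3001 for SDHA and 1439 for SDHD. In CPM without length SDHC averaged 154.5 over 12 libraries, above SDHB (91.7) and SDHD (67.0) and below SDHA (209). SDHC had 10.7, 11.9, 11.45 and 11.6 CPM per kilobase with PFHxA, 11.2, 11.1, 11.7 and 11.65 with PFBA and 12.1, 10.9, 9.90 and 12.5 in control, again with overlap. These levels depend on taking the longest transcript as the length of each gene.

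**Figure D1:**
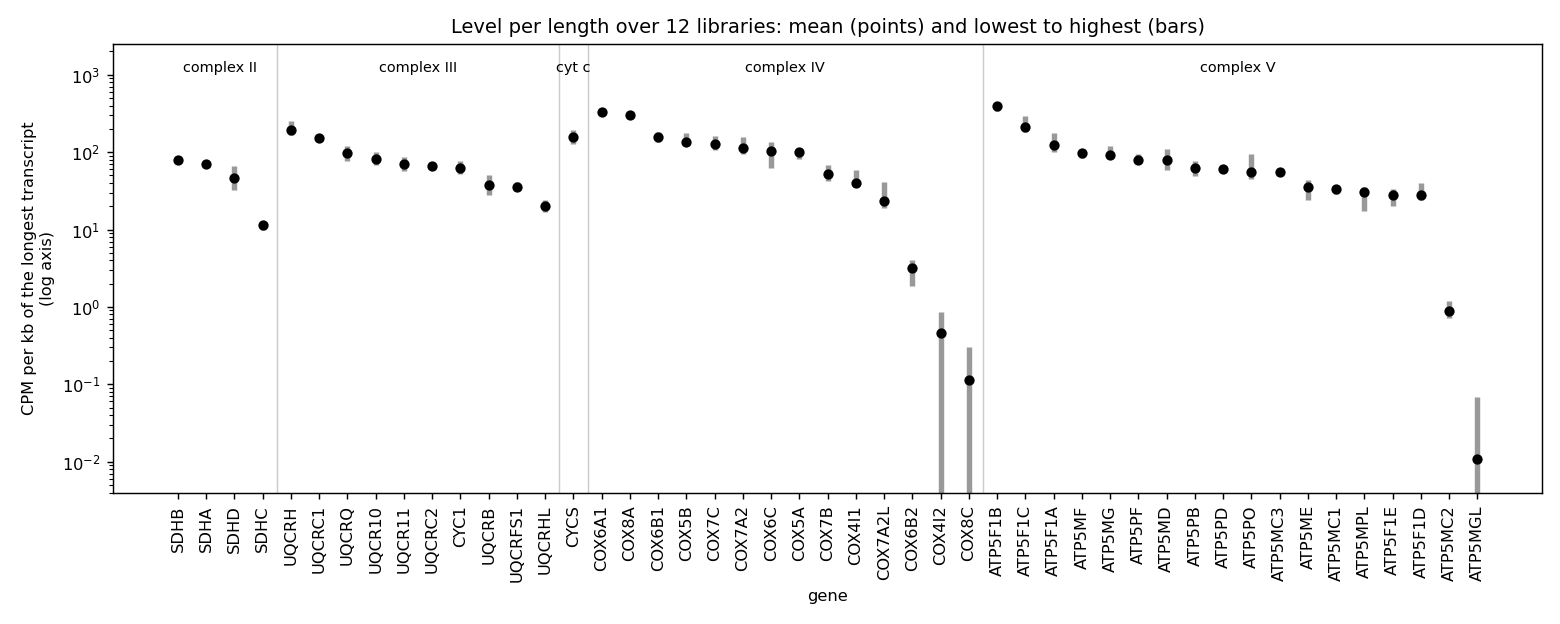
Level per length, in CPM per kilobase of the longest transcript on a log axis, of the 47 genes with at least 1 read and an annotated transcript, by complex; points are means over 12 libraries, bars run from the lowest to the highest library, and bars that reach the lower edge include libraries at 0. ATP5F1B leads at 393, and COX6B2 (3.15) and ATP5MC2 (0.886) lie far below the other tested genes.

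PFHxA libraries had lower fitted levels than control for most of the genes, and some subunits of complexes III, IV and V passed the threshold. At an adjusted p under 0.05 (edgeR quasi-likelihood test, Benjamini-Hochberg over all tested genes) 10 of the 44 genes fell and 0 rose, 22.7%, against 8.82% of all tested genes lower and 6.08% higher. By complex, 0 of 4 genes of complex II fell, 2 of 10 of complex III, 4 of 12 of complex IV and 4 of 17 of complex V, and CYCS did not pass. The fitted level was lower for 36 of 44, and the median log2 fold change was -0.17, against -0.00384 over all genes. By complex the median was -0.04 in II, -0.18 in III, -0.16 in IV and -0.17 in V. With no correction 21 genes were lower and 2 higher at p under 0.05, against 4719 of all 16554 tested genes in either direction. Without control d, 16 were lower. The 4 PFHxA libraries lay below all 4 controls for 18 genes and above them for 1, SDHA, against 11.2% and 9.49% of all genes.

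In complex II, succinate dehydrogenase, 0 of 4 genes passed by edgeR in PFHxA against control, with 1 lower and 1 higher at an unadjusted p under 0.05, and DESeq2 and limma-voom called 0 as well. SDHA, the flavoprotein that oxidises succinate, had 214, 221, 219 and 221 CPM with PFHxA, against 195, 212, 208 and 197 CPM in control. All 4 PFHxA values were above all 4 controls, and the log2 fold change was 0.11 ± 0.05 (SE; adjusted p = 0.146). SDHB, the iron-sulfur subunit that receives its electrons, had 86.9, 92.6, 93.2 and 89.0 CPM with PFHxA, against 96.0, 96.1, 95.7 and 102 CPM in control, all 4 lower, at -0.11 ± 0.04 (adjusted p = 0.0874). The membrane anchors SDHC (0.02 ± 0.06) and SDHD (-0.25 ± 0.16) did not pass. SDHD ran from 46.6 to 68.5 CPM with PFHxA and from 55.4 to 94.1 CPM in control, the widest relative spread in complex II.

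In complex III, UQCRC2 and UQCR10 fell. UQCRC2, a core protein on the matrix side, had 165, 162, 165 and 162 CPM with PFHxA, against 188, 178, 184 and 191 CPM in control. The groups did not overlap, and the log2 fold change was -0.18 ± 0.04 (adjusted p = 0.00994). Its partner in the core, UQCRC1, did not pass, with 316, 325, 327 and 337 CPM with PFHxA and 287, 308, 308 and 319 CPM in control (0.10 ± 0.04, adjusted p = 0.133). UQCR10, a small accessory subunit, had 63.2, 83.5, 67.6 and 64.7 CPM with PFHxA, against 91.3, 87.4, 72.9 and 91.4 CPM in control. The groups overlapped, since PFHxA b was above control c, and the log2 fold change was -0.30 ± 0.09 (adjusted p = 0.0383). UQCRB, another small subunit, showed a log2 change of -0.42 ± 0.13 (adjusted p = 0.0621), UQCRH -0.26 ± 0.09 (0.0806) and UQCRQ -0.22 ± 0.07 (0.0678). The electron carriers of the complex, the Rieske protein UQCRFS1 and cytochrome c1 (CYC1), were at -0.10 ± 0.05 and 0.02 ± 0.09. All 6 accessory subunits had lower fitted levels, with a median log2 change of -0.24.

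Cytochrome c itself, CYCS, had 660.2, 568, 561 and 578 CPM with PFHxA, against 523, 749.8, 740.4 and 773 CPM in control. Control a was below every PFHxA library and the other 3 controls were above them, and the log2 fold change was -0.24 ± 0.11 (adjusted p = 0.203). Without control a, CYCS passed the threshold as lower.

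Complex IV, cytochrome c oxidase, had 4 subunits that fell: COX5B, COX6C, COX7A2 and COX7B. COX7B, a membrane subunit, had 119.9, 110.5, 121 and 117 CPM with PFHxA, against 143, 139.8, 152 and 169 CPM in control (log2 fold change -0.37 ± 0.09, adjusted p = 0.0156). COX7A2, the widely used form of subunit VIIa, had 89.0, 95.8, 86.6 and 105 CPM with PFHxA, against 112, 113, 114 and 143 CPM in control (-0.35 ± 0.10, adjusted p = 0.0323). In both, all PFHxA libraries were below all controls and control d was the highest library. COX5B, the zinc-binding subunit on the matrix side, had 91.02, 92.7, 98.4 and 97.3 CPM with PFHxA, against 103, 103, 109 and 128 CPM in control (-0.23 ± 0.07, adjusted p = 0.0415). COX6C, a small membrane subunit with the lowest fold change of the 44 genes, had 67.6, 97.0, 108 and 98.6 CPM with PFHxA, against 130.3, 122, 135 and 148.5 CPM in control (-0.53 ± 0.15, adjusted p = 0.0424). In neither gene did the groups overlap, and PFHxA a was the lowest library for COX6C. The span of COX6C overlaps that of VPS13B on the other strand. Since the strand setting of the counting is not given, reads in the shared stretch may count for either gene, and their share was not measured. Among the subunits that did not pass, COX4I1, which binds regulatory nucleotides, was at -0.15 ± 0.11, COX5A at -0.08 ± 0.08, COX6A1 at -0.09 ± 0.05 and COX8A at -0.03 ± 0.04. COX6B1, which faces cytochrome c, missed the threshold with 91.8, 104.5, 105 and 99.8 CPM with PFHxA, against 109.6, 109.6, 112 and 120.1 CPM in control (-0.17 ± 0.05, adjusted p = 0.0538). The highest fitted change was that of COX7A2L at 0.22 ± 0.20, which rests on PFHxA d at 127 CPM beside 61.8, 74.0 and 65.7 CPM in the other PFHxA libraries.

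In complex V, 2 of the 4 genes that fell belong to the peripheral stalk, which holds the catalytic head still while the rotor turns. ATP5PB, the long b subunit of the stalk, had 157, 165, 157 and 192 CPM with PFHxA, against 224, 218, 201 and 241 CPM in control. The groups did not overlap and the log2 fold change was -0.40 ± 0.08 (adjusted p = 0.00479), the smallest p of the 44 genes. ATP5PD, subunit d, had 123, 127, 124 and 127 CPM with PFHxA, against 141, 137, 139.9 and 146 CPM in control (-0.17 ± 0.04, adjusted p = 0.0197). ATP5PB overlaps WDR77 and ATP5PD overlaps KCTD2 on the other strand. The other stalk genes, ATP5PF (subunit F6) and ATP5PO (the oligomycin sensitivity protein), were at -0.19 ± 0.06 (adjusted p = 0.0683) and -0.31 ± 0.19 (0.33). ATP5MG, the membrane subunit g at which synthase dimers form, had 129.5, 137, 138 and 135 CPM with PFHxA, against 156, 146, 157 and 189 CPM in control (-0.26 ± 0.07, adjusted p = 0.0183). ATP5F1C, the gamma subunit of the turning shaft, had 209.8, 220.4, 230.4 and 233 CPM with PFHxA, against 255, 246, 255 and 337 CPM in control (-0.29 ± 0.09, adjusted p = 0.0491). All PFHxA values of both genes were below all control values. The head did not pass: ATP5F1A, the alpha subunit, was at -0.02 ± 0.19 and ATP5F1B at 0.01 ± 0.08. ATP5F1B had 676, 810.5, 714 and 734 CPM with PFHxA and 758, 777, 660.5 and 626 CPM with PFBA, against 696, 703, 717.5 and 802 CPM in control, with wide overlap. Their 95% intervals ran from -0.45 to 0.42 and from -0.16 to 0.17, and changes inside those bounds are not excluded. The 3 c-ring genes were at -0.09 (ATP5MC1), -0.15 (ATP5MC2) and -0.09 (ATP5MC3), none past the threshold.

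**Figure D2:**
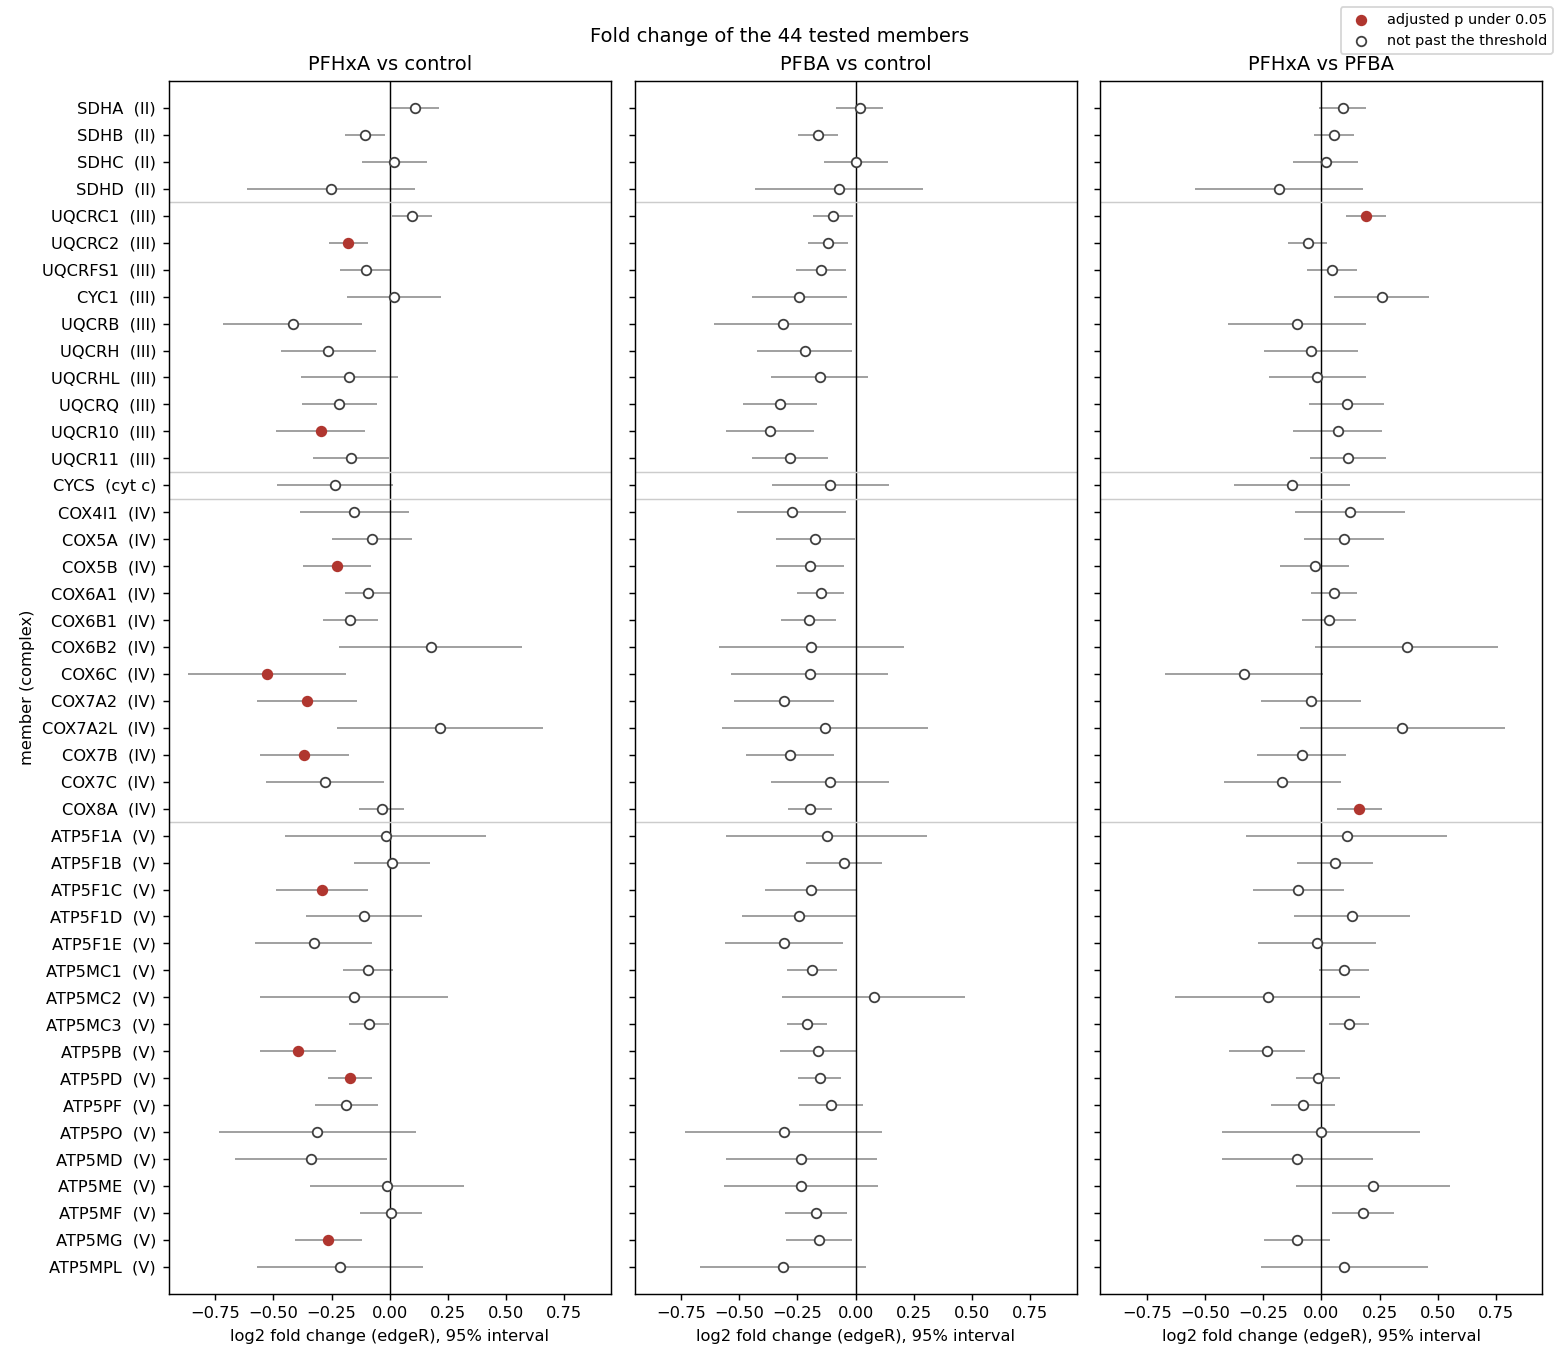
Log2 fold change with its 95% interval for each of the 44 tested genes, ordered by complex, in PFHxA against control, PFBA against control and PFHxA against PFBA. Filled points have an adjusted p under 0.05: 10 lower genes in the left panel, none in the middle one, where 41 of 44 points lie left of 0, and UQCRC1 and COX8A on the right of 0 in the last.

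How firmly these calls stand differs by gene. UQCRC2, ATP5PB and ATP5MG stayed under 0.05 in all 12 fits that each left out 1 library, with adjusted p of at most 0.0385, 0.0201 and 0.0472. None of the 10 calls held with the GC and length trend removed, where ATP5MG turned to 0.02 (adjusted p = 0.921) while UQCRC2 and ATP5PB were at -0.13 and -0.30. COX7B lost its call without PFHxA b (0.0531), ATP5PD without PFHxA b or PFHxA c (at most 0.0638), and COX7A2 without PFHxA a, b or c or control d (at most 0.095). The others were close to the threshold: COX5B kept its call in only 4 of 12 such fits (those without PFBA b, PFBA d, control a and control b), COX6C in 3 (PFBA b, PFBA d and PFHxA c), UQCR10 in 2 (PFHxA b and control c) and ATP5F1C in 1 (control b). Their adjusted p ran from 0.0337 to 0.113, 0.0283 to 0.112, 0.00954 to 0.107 and 0.0354 to 0.121. Over all 44 genes the count ran from 4 (without PFHxA b) to 11 (without PFBA b), and was 5 without control d, PFHxA a or PFHxA c and 6 without PFBA c or PFHxA d. Without control d the median log2 change was -0.14, with 36 of 44 still lower. By complex, 0 of 4 genes of complex II then passed, 1 of 10 of III, 1 of 12 of IV and 3 of 17 of V. The medians were -0.01, -0.14, -0.14 and -0.15.

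**Figure D3:**
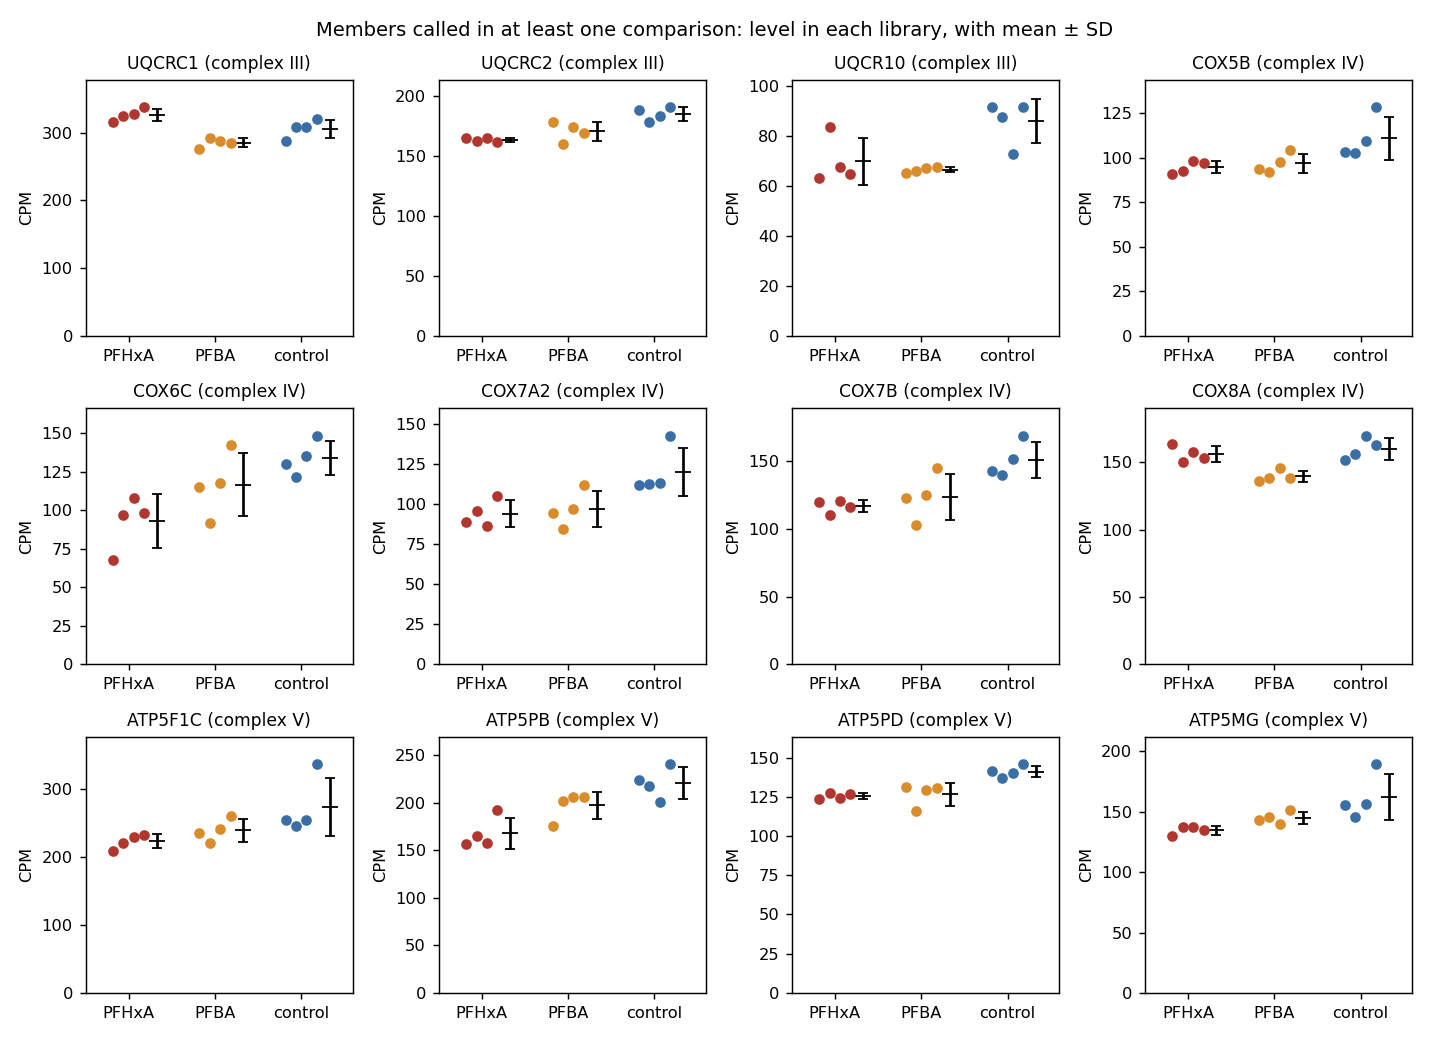
CPM in each of the 12 libraries, from 0, for the 12 genes past the threshold in at least 1 comparison, with mean ± SD of 4 libraries beside each group. UQCRC2, COX5B, COX6C, COX7A2, COX7B, ATP5F1C, ATP5PB, ATP5PD and ATP5MG show 4 PFHxA points below 4 control points, and control d is the highest control in 11 of the 12 panels.

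PFBA libraries also had lower fitted levels than control for most of the genes, with no single gene past the threshold by edgeR. Of the 44 genes 0 were called in either direction by edgeR, against 0% of all tested genes lower and 0.00604% (1 gene) higher. Of the 44, 41 had a lower fitted level, against 50.9% of all tested genes. At an unadjusted p under 0.05 there were 24, all lower, against 1632 of all 16554 tested genes in either direction. Without control d these counts were 39 and 19, and 0 genes were called. The 4 PFBA libraries lay below all controls for 13 genes and above them for 0, against 2.80% and 3.16% of all genes. DESeq2 called 3 genes lower, ATP5MC3, COX8A and UQCRQ, against 21 of all 16543 genes it tested. By limma-voom 0 were called. The median log2 fold change was -0.19, with -0.00264 over all genes, and -0.14 without control d.

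By complex, the median log2 change was -0.03 in complex II (2 of 4 lower), -0.23 in complex III (10 of 10 lower, 9 with an unadjusted p under 0.05), -0.20 in complex IV (12 of 12) and -0.19 in complex V (16 of 17). UQCR10 had 65.3, 66.0, 67.1 and 67.6 CPM with PFBA, against 91.3, 87.4, 72.9 and 91.4 CPM in control, at -0.37 ± 0.09 (adjusted p = 0.304). UQCRQ, a small membrane subunit, had 78.1, 65.9, 78.6 and 85.6 CPM with PFBA, against 95.3, 89.0, 98.8 and 103 CPM in control (-0.32 ± 0.07, adjusted p = 0.297). In neither gene did the groups overlap. COX8A had 136, 138, 146 and 138 CPM with PFBA, against 151, 156, 169.6 and 163 CPM in control (-0.20 ± 0.04, adjusted p = 0.297), and COX6B1 90.9, 102, 97.2 and 102 CPM with PFBA, against 109.6, 109.6, 112 and 120.1 CPM in control (-0.20 ± 0.05, adjusted p = 0.304). The c-ring gene ATP5MC3 had the smallest p, with 285, 280.5, 284 and 278 CPM with PFBA, against 309, 319, 338 and 338 CPM in control (-0.21 ± 0.04, adjusted p = 0.256). Its ring partner ATP5MC1 had 71.0, 72.4, 71.4 and 64.1 CPM with PFBA, against 77.2, 77.6, 81.6 and 81.3 CPM in control (-0.19 ± 0.05, adjusted p = 0.304). SDHB was the exception in complex II, with 87.1, 89.6, 84.8 and 87.0 CPM with PFBA and no overlap with control (-0.16 ± 0.04, adjusted p = 0.304), while SDHA, with 201, 202, 193 and 224 CPM, was at 0.02 ± 0.05. SDHD, with 72.2, 70.0, 64.9 and 67.0 CPM with PFBA, against 60.3, 55.4, 78.2 and 94.1 CPM in control, was at -0.07 ± 0.16 and turned to 0.09 without control d. Without control d the median became 0.02 in complex II, -0.15 in III, -0.17 in IV and -0.13 in V. In complex III 5 genes then had an unadjusted p under 0.05. Without control b the median of complex II was -0.09.

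**Figure D4:**
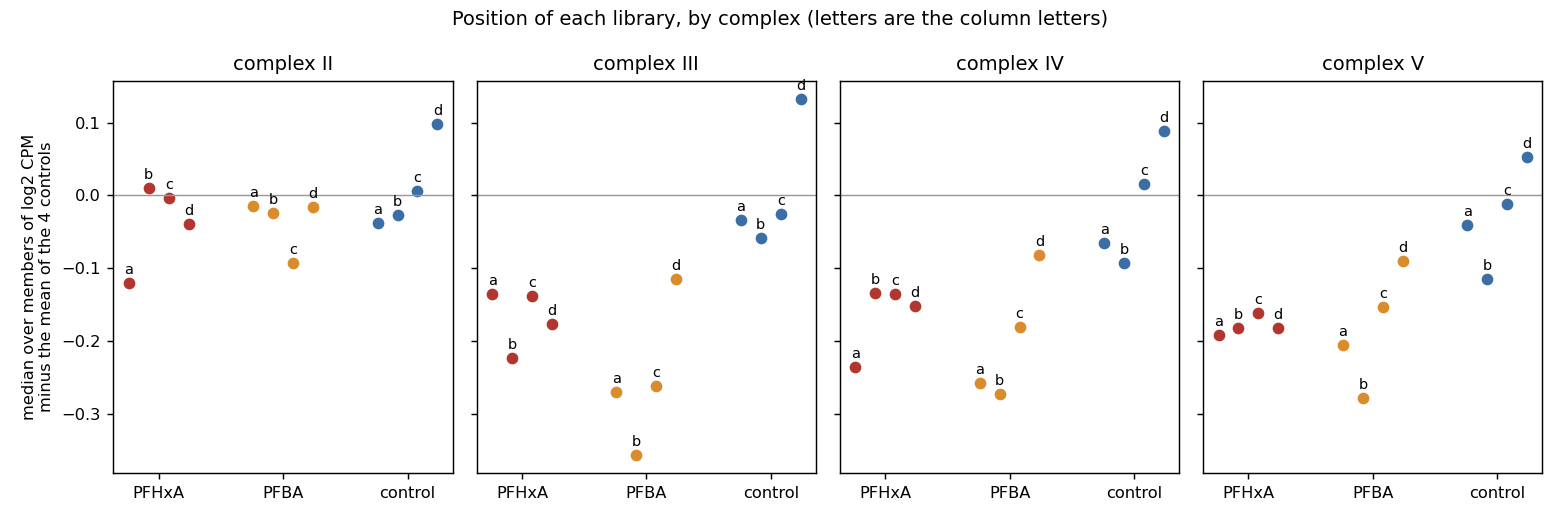
Median over the genes of each complex of log2 CPM minus the mean of the 4 controls, for each library (letters are the column letters). Control d is the highest library in all 4 panels; in complexes III, IV and V PFBA d is the highest PFBA library, and in IV and V it lies within the control range.

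The libraries of a group were not equally placed. Over the 44 genes, the median log2 level relative to the control mean was -0.16, -0.16, -0.14 and -0.17 in PFHxA a to d, -0.22, -0.26, -0.17 and -0.09 in PFBA a to d, and -0.05, -0.08, 0.00 and 0.11 in control a to d. PFHxA libraries were close together, whereas PFBA d was nearer to control b than to PFBA b. The share of all reads taken by the 51 genes was 0.687% to 0.711% with PFHxA, 0.663% to 0.743% with PFBA and 0.718% to 0.764% in controls a to c, so that PFBA d, the highest PFBA library, lay within the range of those controls.

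Directly compared at the same dose and time, the longer acid differed from the shorter one in 2 of the 44 genes, both higher with PFHxA. By edgeR this is 4.55%, near the 3.84% of all tested genes that were higher, and 0 genes were lower, against 7.07%. The 4 PFHxA libraries lay above all 4 PFBA libraries for 5 of the 44 genes and below them for 1, against 9.3% and 10.8% of all genes. With no correction 5 genes were higher and 1 lower at p under 0.05, against 4399 of all 16554 tested genes in either direction. DESeq2 called 4 higher and 1 lower, against 999 and 1399 of all 16543 genes it tested. By limma-voom 2 were higher and 0 lower, against 675 and 1206 of all 16554. The median log2 difference was 0.04. UQCRC1 had 316, 325, 327 and 337 CPM with PFHxA, against 276, 292, 288 and 285 CPM with PFBA. The groups did not overlap, the log2 difference was 0.19 ± 0.04 (adjusted p = 0.00876), and the call held in all 12 fits without 1 library. COX8A had 163, 150.4, 158 and 153 CPM with PFHxA, against 136, 138, 146 and 138 CPM with PFBA, again without overlap (0.16 ± 0.04, adjusted p = 0.0328). Its call was lost without PFHxA a, c or d or PFBA a, b or d (adjusted p up to 0.089). In both genes the PFBA libraries were the lowest of the 3 groups on average, at 285 ± 7.11 and 139 ± 4.24 CPM (SD, n = 4), and control libraries averaged 305 ± 13.6 and 159.8 ± 8.04 CPM.

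Among the genes that fell with PFHxA, none differed between the acids at the threshold. For ATP5PB the levels were 157, 165, 157 and 192 CPM with PFHxA and 176, 202, 206 and 206 CPM with PFBA, with a log2 difference of -0.23 (95% interval -0.40 to -0.07, adjusted p = 0.0631). It passed without PFBA a or PFHxA d. CYC1 had 112, 120.3, 113 and 135 CPM with PFHxA, against 99.7, 102, 96.5 and 103 CPM with PFBA, without overlap (0.26 ± 0.09, adjusted p = 0.0953), and passed without control a or control d. For UQCRC2 the interval was -0.14 to 0.03, for ATP5PD -0.11 to 0.08 and for COX7B -0.28 to 0.11. COX6C had 67.6, 97.0, 108 and 98.6 CPM with PFHxA, against 115, 92.0, 118 and 142 CPM with PFBA, with an interval of -0.67 to 0.01. ATP5MC3 was at 0.12 ± 0.04 (adjusted p = 0.0712), with 304, 316, 313 and 292 CPM with PFHxA and 285, 280.5, 284 and 278 CPM with PFBA. In complex II the intervals were -0.01 to 0.19 for SDHA, -0.03 to 0.14 for SDHB, -0.12 to 0.16 for SDHC and -0.54 to 0.18 for SDHD. These intervals hold the differences that the data do not exclude. Because both comparisons with control share the same control libraries, likeness between them is not counted as a result. The same holds for both PFHxA comparisons, which share the PFHxA libraries.

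Base composition moved with the PFHxA comparisons. The slope of log2 level on transcript GC content over all genes was 0.07 to 0.10 per 10 points in PFHxA libraries, -0.07 to 0.00 in PFBA libraries and -0.07 to -0.01 in control libraries. Over the 44 genes, whose longest transcripts have 37.6% to 64.5% GC, the fold change of PFHxA against control had a Pearson correlation with GC content of 0.53 (all genes, 0.35), that of PFHxA against PFBA 0.58 (all genes, 0.42) and that of PFBA against control -0.01 (all genes, -0.04). These values describe genes that share the same libraries. Of 18 genes under 45% GC, 7 fell with PFHxA (38.9%, against 21.05% of all genes under that limit), and of 26 at or over it 3 fell (11.5%, against 1.77% of all genes). UQCRC1 and COX8A, the pair higher with PFHxA than with PFBA, have 59.6% and 58.6% GC. Levels also varied with transcript length over all genes. Each doubling in length went with a log2 change of 0.014 to 0.025 in PFHxA libraries. In control libraries it was -0.063 to -0.009, lowest in control d. PFBA a to d had 0.014, 0.033, 0.005 and -0.021. The median length of the 44 genes was 1746 bases, against 3252 over all genes. The part of length alone in either comparison with control was not tested. With the trends over GC content and length taken out of each library, 0 of the 44 genes passed in PFHxA against control by edgeR, with 12 lower and 1 higher at an unadjusted p under 0.05 and 35 lower in fitted level (median log2 change -0.11), while calls over all genes dropped to 433 from 2466. Of the 10 genes called before, ATP5PB stood at -0.30 (adjusted p = 0.0533), COX5B at -0.20 (0.0655), UQCRC2 at -0.13 (0.0655), COX6C at -0.33 (0.271), UQCR10 at -0.22 (0.215), COX7B at -0.20 (0.157), COX7A2 at -0.16 (0.313), ATP5F1C at -0.13 (0.372) and ATP5PD at -0.09 (0.202). ATP5MG alone changed sign. In PFHxA against PFBA, UQCRC1 and COX8A were no longer called and ATP5MC3 passed as higher, and for PFBA against control the median was -0.15 with 42 of 44 lower.

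**Figure D5:**
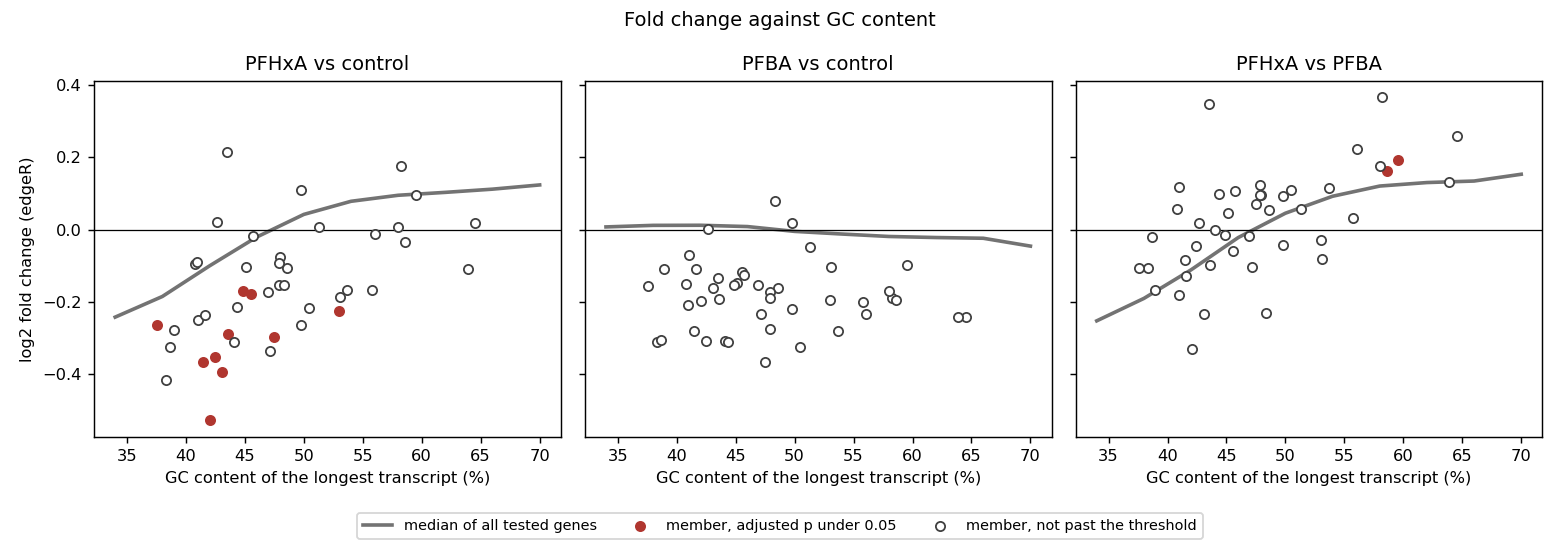
Log2 fold change of each of the 44 genes against the GC content of its longest transcript in the 3 comparisons; filled points passed the threshold, and the grey line is the median of all tested genes in steps of GC content. The line climbs with GC content in both PFHxA comparisons and is nearly flat in PFBA against control, where 41 of the 44 points lie below 0.

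Genes that act on these complexes were read in the same fit. Of 50 assembly factors of complexes II to V, 6 fell and 0 rose with PFHxA against control by edgeR (median log2 change -0.11). At an unadjusted p under 0.05, 13 were lower and 0 higher, against 4719 of all 16554 tested genes in either direction. The 6 are 12% of the list, near the 8.82% of all tested genes that were lower. With PFBA 0 were called (median -0.09). At an unadjusted p under 0.05, 7 were lower and 0 higher, against 1632 of all 16554 tested genes in either direction. Between the acids 4 were lower with PFHxA and 0 higher. With no correction these were 8 and 3, against 4399 of all 16554 tested genes in either direction. The 4 are 8% of the list, near the 7.07% of all tested genes that were lower. FASTKD2, which binds mitochondrial RNA, averaged 42.6 ± 3.36 CPM with PFHxA and 55.9 ± 4.69 CPM in control (SD, n = 4 each; -0.39 ± 0.07, adjusted p = 0.00353). LRPPRC, which stabilises mitochondrial messenger RNAs, averaged 590 ± 20.04 CPM with PFHxA and 679 ± 24.8 CPM in control (-0.20 ± 0.04, adjusted p = 0.00475). Both were also lower with PFHxA than with PFBA, for FASTKD2 not without PFBA a or c or PFHxA c or d. The others lower with PFHxA than with PFBA were COA7, whose call was lost without PFBA a or d, and TMEM242, whose call was lost without PFBA c or d or PFHxA b or d. FASTKD2, LRPPRC and COX16 kept their call against control whichever library was left out. The other 3, SCO1 (copper delivery), SMIM20 and TMEM242, lost it in 8, 8 and 9 of 12 such fits, control d among them each time. After the GC and length trend was removed, of these 6 only LRPPRC passed against control (-0.16, adjusted p = 0.03). SCO1 was then at -0.21 (adjusted p = 0.0517) and SMIM20 at -0.32 (0.127), against -0.15 and -0.37 before, and FASTKD2, COX16 and TMEM242 were at -0.20, -0.19 and -0.19. Between the acids none of the 4 passed after this removal: FASTKD2 was at -0.07 (adjusted p = 0.711), LRPPRC at -0.16 (0.058), COA7 at -0.19 (0.0954) and TMEM242 at -0.24 (0.203).

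Of the 6 mitochondrially encoded subunits of complexes III to V, 3 rose with PFHxA against control by edgeR and 0 fell. Over all tested genes 6.08% rose. At an unadjusted p under 0.05, 6 were higher and 0 lower, against 4719 of all 16554 tested genes in either direction. MT-CYB, cytochrome b of complex III, had 8969, 9842, 9869 and 9715 CPM with PFHxA, against 8581, 8219, 7732 and 5998 CPM in control, without overlap (0.33 ± 0.09, adjusted p = 0.02215). MT-ATP6 (0.33 ± 0.10, adjusted p = 0.0373) and MT-ATP8 (0.29 ± 0.09, adjusted p = 0.0456) of the synthase also rose, and MT-CO1, MT-CO2 and MT-CO3 of complex IV, at 0.22, 0.21 and 0.17, did not pass. With PFBA 0 of 6 passed by edgeR (median 0.05, 0 with an unadjusted p under 0.05). Between the acids 0 of 6 passed (median 0.21). At an unadjusted p under 0.05, 5 were higher there, against 4399 of all 16554 tested genes in either direction. Control d had the lowest level of each gene. Without it the changes of the 3 called genes were 0.23, 0.23 and 0.19, against 0.33, 0.33 and 0.29 with it, all still called. Calls were lost without some of the other libraries. That of MT-CYB went without PFHxA b, PFHxA c or PFHxA d, and that of MT-ATP6 without these, PFBA c or control c. That of MT-ATP8 went in 9 of 12 fits, all but those without PFHxA a, control b or control d. None passed after the GC and length trend was removed, with changes of 0.42, 0.48 and 0.54 and adjusted p of 0.0528, 0.0515 and 0.0794. NDUFA4, a complex IV subunit outside the naming rule, was at -0.26 ± 0.20 with PFHxA and -0.49 with PFBA, not called.

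Of 16 regulators of mitochondrial gene expression, 2 rose and 2 fell with PFHxA against control. Each is 12.5% of the list, against 6.08% of all tested genes higher and 8.82% lower. With PFBA 0 were called by edgeR. At an unadjusted p under 0.05, 1 was higher and 1 lower with PFBA, against 1632 of all 16554 tested genes in either direction. GABPA, an ETS factor known to bind promoters of respiratory genes, averaged 47.2 ± 3.09 CPM with PFHxA and 56.8 ± 1.04 CPM in control (-0.27 ± 0.05, adjusted p = 0.00331). TFAM, which packages and transcribes mitochondrial DNA, averaged 77.9 ± 3.30 CPM with PFHxA and 89.4 ± 5.63 CPM in control (-0.20 ± 0.05, adjusted p = 0.0197); its call was lost without PFHxA b or d. PPRC1, a coactivator, and POLRMT, the mitochondrial RNA polymerase, rose by 0.20 ± 0.04 and 0.19 ± 0.05 (adjusted p = 0.00813 and 0.014). The same 4 genes, in the same directions, passed in PFHxA against PFBA. Each direction is again 12.5% of the list, against 3.84% of all tested genes higher and 7.07% lower. Both comparisons share the same PFHxA libraries, so the repeat is not counted as a second result. Between the acids GABPA kept its call in all 12 fits without 1 library. POLRMT lost it without PFBA c or d, and PPRC1 without PFBA c or d or PFHxA a, b or c. TFAM lost it in 8 of 12 fits, keeping it without PFHxA c, control a, control c or control d. After the GC and length trend was removed none of the 4 passed in either comparison. NRF1, the other classic factor of these promoters, was at 0.07 ± 0.09, and the coactivator PPARGC1A at -0.04 ± 0.05. GABPA overlaps ATP5PF on the opposite strand, one of 11 tested genes with such a neighbour by the span of the whole gene. With the strand setting not given, reads in the shared stretch may count for either gene, and their share was not measured.

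Promoter sequences of some of the genes past the threshold are shown because these factors are known to act there. RefSeq promoters (GRCh38.p14, 250 bases before to 50 after the start) were matched to 33 of the 44 tested genes, with 39 starts. The motif CCGGAAG, the core bound by ETS factors such as GABPA, stood on either strand in 16 of the 39 (41%), against 10.3% of all 35116 promoters and 16.2% of 16306 promoters of tested genes. GCGCATGCG, bound by NRF1, was in 6 (15.4%, against 1.92% and 3.01%), AANATGGCG, bound by YY1, in 7 (17.9%, against 3.19% and 5.61%) and GGGCGG, bound by SP1, in 22 (56.4%, against 45% and 64.8%). The stretches below run from 120 bases before to 5 bases after the start, 5′ to 3′ on the gene's strand, with CCGGAAG or GCGCATGCG on either strand in capitals. COX5B holds the ETS core at 2 places, ATP5PD and COX8A hold it once on the other strand, ATP5F1C holds the NRF1 motif on both strands with overlap, and UQCRC2 and ATP5PB, the genes with the smallest p in PFHxA against control, hold neither in this window. Of the 12 genes past the threshold in any comparison, promoters of 11 were read: 4 hold CCGGAAG or GCGCATGCG in this window, all shown, and 7 hold neither, among them UQCRC1, UQCR10, COX7A2, COX7B and ATP5MG, which are not shown. Over the whole promoter ATP5MG also holds CCGGAAG, for 5 of 11. A match describes letters and not binding.
COX5B (chr2:97645942-97646066, plus strand): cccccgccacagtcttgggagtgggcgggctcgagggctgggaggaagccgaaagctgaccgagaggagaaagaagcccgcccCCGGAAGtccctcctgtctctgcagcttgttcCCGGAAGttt
ATP5PD (chr17:75046965-75047089, minus strand): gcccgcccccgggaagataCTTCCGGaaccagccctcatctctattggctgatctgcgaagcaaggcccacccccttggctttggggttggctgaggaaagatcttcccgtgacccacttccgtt
COX8A (chr11:63974500-63974624, plus strand): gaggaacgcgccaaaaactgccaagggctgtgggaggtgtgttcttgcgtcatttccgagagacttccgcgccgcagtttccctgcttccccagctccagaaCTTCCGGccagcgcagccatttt
ATP5F1C (chr10:7788057-7788181, plus strand): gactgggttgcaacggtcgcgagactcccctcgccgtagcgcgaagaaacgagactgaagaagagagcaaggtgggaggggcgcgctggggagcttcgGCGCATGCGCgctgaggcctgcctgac
UQCRC2 (chr16:21953241-21953365, plus strand): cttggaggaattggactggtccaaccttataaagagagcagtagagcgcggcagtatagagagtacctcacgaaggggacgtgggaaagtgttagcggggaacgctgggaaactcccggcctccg
ATP5PB (chr1:111449344-111449468, plus strand): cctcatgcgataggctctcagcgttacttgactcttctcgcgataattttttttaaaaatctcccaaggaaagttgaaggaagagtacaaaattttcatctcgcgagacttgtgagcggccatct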

How the data were processed

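Values analysed are the authors' deposited raw counts of reads, listed by Ensembl gene, for 12 libraries. The authors aligned reads with HISAT2 2.0.4 to GRCh38 (hg38), per the submitters' processing notes; the counter, annotation release and strand setting were not given in the sources used here. Columns could be tied to groups but not to single samples, so libraries carry column letters, and 12 further per-library columns of FPKM were not used; levels per length, planned from FPKM, are CPM per kilobase of the longest GENCODE 29 transcript, which also gave GC content (94.9% of shared genes have the same position there). Members and lists were chosen with earlier results of these data known. edgeR 4.0.16 in R 4.3.3 (filterByExpr with minimum count 10 and total 15, TMM, robust two-sided quasi-likelihood test, all 12 libraries, group as the only term) tested 16554 genes with Benjamini-Hochberg adjustment at 0.05 and 95% intervals. Scripts were checked on simulated counts. Values in every library are given for called members for the 2 smallest p in each complex and comparison, and for the highest and the lowest tested level per length in each complex. Alternatives used limma 3.58.1, DESeq2 1.42.0, other filters and scaling, a GC and length correction, and left out each library in turn. No 2 libraries had identical counts.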

Additional observations from a re-analysis of the deposited data

Results flagged for a closer look

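In 12 of 132 checks of 1 gene in 1 group of 4 libraries, a library stood away from the other 3 by more than Dixon's limit allows; chance flags about 1 in 20 groups. Control d was the library in 6 of them. It had 101.9 CPM for SDHB, with the other controls at 95.7 to 96.1, 277.2 for UQCRB (others 229 to 236), 142.9 for COX7A2 (112 to 114), 1011 for ATP5F1A (628 to 661), 337.1 for ATP5F1C (246 to 255) and 266.6 for ATP5PO (153 to 159.6). Control a had 523.3 CPM for CYCS, with the others at 740.4 to 773.1. PFHxA a had 191.4 CPM for ATP5PO (others 131 to 136). PFBA d had 874.3 CPM for ATP5F1A (595 to 631) and 64.06 for ATP5MC1 (71.0 to 72.4). PFBA a had 176 CPM for ATP5PB (202 to 206) and PFBA b 115.8 for ATP5PD (129 to 131).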

How the results depend on the processing

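The 10 calls of PFHxA against control became 15 by DESeq2 (1568 of all 16543 genes lower) and 9 by limma-voom (1439 of all 16554 lower). They became 9 with another scaling, 12 with a stricter filter and 12 with only the 8 libraries compared. With no filter on low counts there were 6, with a replicate block for the column letter 16, and without 1 library 4 to 11. With the GC and length trend removed 0 passed, and with that and the block 3 passed (ATP5PB, COX5B and UQCRH). The 2 calls of PFHxA against PFBA became 1 with no filter, 5 by DESeq2, 5 with the block, 1 with the trend removed and 1 to 3 without 1 library. In PFBA against control DESeq2 called 3. Over all tested genes, correlations of same-letter deviations ran from -0.0896 to 0.0625. Over the members of complexes II to V, the median level ranked the letters b, a, c, d from the lowest in both PFBA and control. In PFHxA the order differed, with d the lowest. Whether the column letters pair the libraries is not given in the labels and was not settled here. With the trend removed, calls over all genes were 433 in PFHxA against control and 146 in PFHxA against PFBA, against 2466 and 1806; DESeq2 gave 44 for PFBA against control, against 1, and limma-voom 0. With the trend removed, the median of complex V was -0.1 in PFHxA against control (-0.0946 with the block as well) and 0.0739 in PFHxA against PFBA (0.0657 with the block as well). Without 1 library, the PFBA medians ran from -0.0897 to 0.024 in complex II and from -0.273 to -0.15 in complex III, and SDHD with PFBA from -0.177 to 0.0853. ATP5MG in PFHxA against control turned to 0.0173 with the trend removed and 0.0174 with the block as well. The causes were not tested. The planned comparison of FPKM with CPM per kilobase was not run. Depth limits ATP5MC2 most, at 27 to 45 reads a library.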
